A study of Mus musculus with 12 samples.

Results

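The genes described here are 40 liver-secreted genes of complement and coagulation, 20 of each cascade, taken by symbol from a list and found in the deposited count table of the series. All 40 matched a gene ID among the 55471 in the table, and all 40 passed the filter on low counts that left 13866 genes for testing. The series addressed the part of DNMT1, the enzyme that copies DNA methylation onto newly made strands, in metabolic dysfunction-associated steatotic liver disease (MASLD), in which fat builds up in the liver. Livers of C57BL/6 mice were profiled by RNA-seq in 4 groups of 3 samples. They were a standard diet group (SD), a group on a diet that gives MASLD, and 2 groups on the MASLD diet that received Aza-TdC, a nucleoside analogue that depletes DNMT1 once built into DNA, at relative doses of 0.1x and 1x. Both Aza-TdC groups therefore carried the MASLD diet as well, and no group received Aza-TdC on the standard diet. The labels give no absolute dose, duration, diet composition, age or sex, and nothing in them states that each sample is a different animal. The spread behind every p-value is that among these samples, and it may be technical.

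Complement is a chain of plasma proteins that marks microbes and damaged cells. Lectins or the C1 complex bind a surface and activate serine proteases, the proteases build convertases that cleave C3, and the last components assemble into a pore, the membrane attack complex. Coagulation is a second protease chain in plasma, in which contact factors, tissue factor with factor VII, and factors X and V lead to thrombin, and thrombin turns fibrinogen into fibrin, which plasmin later dissolves. Hepatocytes make most of the circulating proteins of both chains and also most of the inhibitors that keep them in check, among them C1 inhibitor, antithrombin, protein C and antiplasmin. In hepatocytes these genes are known targets of the liver transcription factors HNF1, HNF4 and C/EBP, and fibrinogen also of STAT3 during the acute phase.

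Sequences upstream of the start site are printed for 5 members on which the results below turn. C8b and C8a encode chains of 1 protein and, of the neighbouring pairs of members, differed most on the diet. The fibrinogen genes Fgb and Fgg lie on either side of Fga, and their changes lay close together. Fga is not printed, since its RefSeq start lies inside the gene as annotated by GENCODE. F7 was the coagulation member with the smallest adjusted p in the diet comparison. Each sequence runs 5′ to 3′ over the 250 bases before the start site of RefSeq (build GRCm38.p6, the assembly also called mm10). Capitals mark matches on either strand to 4 sets of letters: GTTAAT (HNF1-type), CAAAGNNCA (HNF4-type), TTGCNNAA (C/EBP-type) and CTGGGAA (STAT3-type).
C8b (chr4:104766067-104766316, plus strand): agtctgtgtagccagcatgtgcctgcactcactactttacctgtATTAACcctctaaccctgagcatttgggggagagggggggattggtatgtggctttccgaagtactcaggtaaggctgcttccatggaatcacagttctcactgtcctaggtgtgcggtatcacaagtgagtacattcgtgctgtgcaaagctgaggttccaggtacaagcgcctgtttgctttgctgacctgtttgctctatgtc
C8a (chr4:104876399-104876648, minus strand): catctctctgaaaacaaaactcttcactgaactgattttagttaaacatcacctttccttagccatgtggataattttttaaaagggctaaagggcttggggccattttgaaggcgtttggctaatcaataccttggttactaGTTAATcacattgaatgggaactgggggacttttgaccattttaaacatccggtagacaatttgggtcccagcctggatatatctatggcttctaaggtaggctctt
Fgb (chr3:83049864-83050113, minus strand): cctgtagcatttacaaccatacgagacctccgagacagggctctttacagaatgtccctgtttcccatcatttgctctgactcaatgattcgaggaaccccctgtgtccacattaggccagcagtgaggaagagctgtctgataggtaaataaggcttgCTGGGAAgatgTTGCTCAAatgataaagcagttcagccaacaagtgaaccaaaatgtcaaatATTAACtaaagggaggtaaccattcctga
Fgg (chr3:83007474-83007723, plus strand): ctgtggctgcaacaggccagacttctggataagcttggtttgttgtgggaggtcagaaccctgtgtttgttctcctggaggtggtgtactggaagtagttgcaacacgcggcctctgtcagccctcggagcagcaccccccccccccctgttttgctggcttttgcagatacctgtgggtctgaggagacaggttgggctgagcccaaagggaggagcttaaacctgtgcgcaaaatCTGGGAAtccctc
F7 (chr8:13025784-13026033, plus strand): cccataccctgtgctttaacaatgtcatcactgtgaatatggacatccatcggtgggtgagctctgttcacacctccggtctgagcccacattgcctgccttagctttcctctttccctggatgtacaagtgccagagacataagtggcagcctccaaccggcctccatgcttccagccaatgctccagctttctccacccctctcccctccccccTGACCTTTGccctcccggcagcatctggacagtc

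Positions are counted from the start site, with negative numbers before it. HNF1-type letters began at −206 in C8b, −107 in C8a and −29 in Fgb. HNF4-type letters began at −34 in F7. C/EBP-type letters began at −80 in Fgb, and STAT3-type letters at −91 in Fgb and −13 in Fgg. Matches to different letters did not overlap in these 5 sequences. Of all 32851 upstream windows of the same length in the RefSeq table, 6.43% held the HNF1-type letters, 5.49% the HNF4-type, 9.56% the C/EBP-type and 9.10% the STAT3-type. A match describes letters and is no evidence of binding. A count over all members is void, since 30 of the 40 (75%) had an entry in the table. Those without were Serping1, Cfb, Kng1, Cfi, Plg, Masp1, Clu, Proc, C4b and C2.

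Libraries held between 30213048 and 41852606 counts. The 3 libraries of a group are given in the order of their sample numbers, which are 3, 4 and 5 for SD and MASLD, 1, 3 and 4 for 0.1x, and 2, 4 and 5 for 1x. At 0.1x, sample 3 stood apart, with the lowest value of its group for 32 of the 40 members. In that library 23.7% of the variance of its genes' deviations followed GC content and transcript length. The next largest shares were those of 1x sample 2 and of MASLD sample 5 (13.3%), and the other libraries had 9.98% or less. In SD, sample 3 was the highest library for 24 of the 40 members, C8b, C9 and Serpinf2 among them, and the lowest for 8. The labelled tissue carried its marker genes, with 12 hepatocyte markers summing to 107606 to 128904 CPM (reads of a gene scaled to a common library size) in the group with the lowest library, MASLD.

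In livers on the MASLD diet, both cascades were expressed at lower levels than on the standard diet. Of the 40 members 33 fell and none rose, with 16 of 20 complement and 17 of 20 coagulation members lower at an adjusted p under 0.05 (edgeR's quasi-likelihood test with Benjamini-Hochberg adjustment over all genes tested). Over all genes tested 29.5% passed in either direction, and 13.9% passed as lower. At an unadjusted p under 0.05, 34 members were lower and 1 was higher, and DESeq2 called 33 lower and none higher. The median log2 fold change of the members was −0.93, against 0.03 for all genes tested. For 35 members every MASLD library lay below every SD library, which held for 22.8% of all genes tested, and for 1 (Pros1) every MASLD library lay above, against 25.1% of all genes. Summed over the 40 genes, the level was 59185 ± 2846 CPM in SD and 31078 ± 1796 CPM in MASLD (mean ± SD over the 3 libraries of a group). As a share of all counts, without scaling factors, they held 5.07 ± 0.231% in SD and 3.41 ± 0.0997% in MASLD, a smaller fall. The CPM include TMM scaling factors, which were 0.852 to 0.866 in SD and 1.07 to 1.15 in MASLD. In bulk liver RNA, fewer hepatocytes and less RNA per hepatocyte cannot be told apart.

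**Figure D1:**
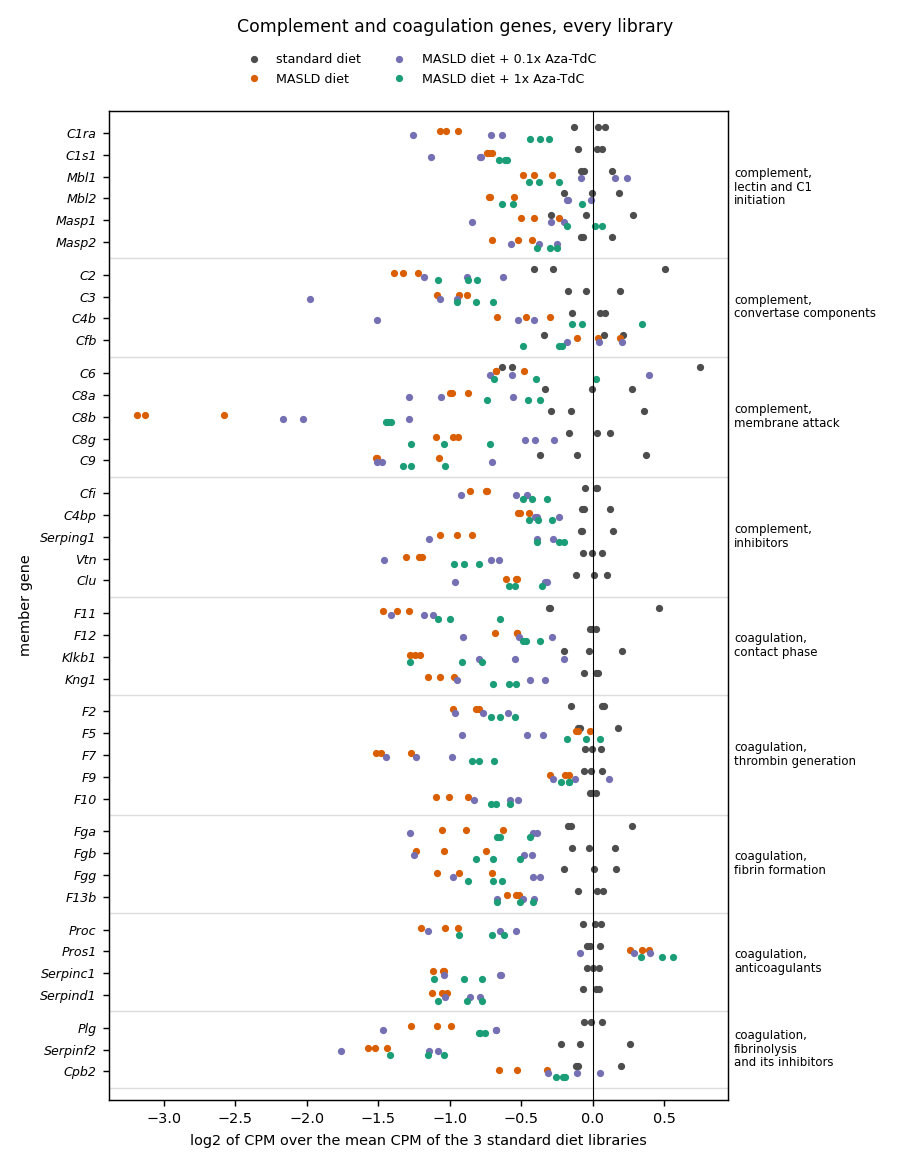
Level of each of the 40 members in every library, as log2 of its CPM over the mean CPM of the 3 SD libraries, with 1 point per library and members grouped by role. C8b lies farthest left in MASLD and Pros1 lies to the right of 0 there, and 0.1x sample 3 is the leftmost 0.1x point for 32 members.

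Among the initiating genes of complement 5 of 6 fell. C1ra, which encodes a protease of the C1 complex, stood at 421, 406 and 362 CPM in SD and 194, 189 and 206 CPM in MASLD. The groups did not overlap, and the log2 change was −1.01 ± 0.14, adjusted p 0.000115. Mbl2, a mannose-binding lectin, had the highest mean CPM of this role over all 12 libraries, just above C1s1. In SD and MASLD themselves C1s1 was higher, at means of 599 and 363 CPM against 507 and 321 CPM for Mbl2. Mbl2 stood at 442, 505 and 575 CPM in SD and 307, 309 and 346 CPM in MASLD (−0.66 ± 0.15, adjusted p 0.0042). The other members of this role that fell were C1s1, the partner protease of C1ra (−0.72 ± 0.11), the lectin Mbl1 (−0.39 ± 0.12) and the lectin-associated protease Masp2 (−0.55 ± 0.12). Masp1, a further lectin-associated protease, did not pass (−0.38 ± 0.17, adjusted p 0.103). Counts of Masp2 are less certain, since 54.9% of its exon bases overlap Tardbp, an expressed gene on the opposite strand. Over all libraries Tardbp held 10668 counts and Masp2 89066.

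Of the 4 convertase components 2 fell. C3, the central component of all complement pathways, had the highest CPM of the 40 in SD and in MASLD. It stood at 8718, 10279 and 7974 CPM in SD and 4701, 4883 and 4228 CPM in MASLD, so that its level dropped by 48.8% (−0.97 ± 0.21, adjusted p 0.00365). Every MASLD library lay below every SD library. C2, the protease of the classical convertase, had the largest change of this role, at 31.9, 18.5 and 16.9 CPM in SD and 8.92, 9.59 and 8.53 CPM in MASLD (−1.31 ± 0.21, adjusted p 0.00033), with SD sample 3 well above the other 2 SD libraries. C4b did not pass (−0.47 ± 0.23, adjusted p 0.131), nor did Cfb, the protease of the alternative convertase (0.05 ± 0.16, adjusted p 0.855). The counts of C2 and Cfb are uncertain, because 42.8% and 79.5% of their exon bases are shared with Gm20547, a same-strand gene model that held 0 counts, and C4b has the near-identical copy C4a.

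The membrane attack genes held the largest change of all members. C8b, which encodes the beta chain of C8, stood at 511, 359 and 326 CPM in SD and 43.8, 45.4 and 66.7 CPM in MASLD, a fall of 2.94 ± 0.24 on the log2 scale (adjusted p 1.12e-06), so that its level fell by 87%. The lowest SD library was far above the highest MASLD library, and 42 of the 13866 genes tested had a more negative fold change. C8a, the alpha chain and the most abundant member of this role by CPM, stood at 912, 748 and 596 CPM in SD and 376, 379.6 and 411 CPM in MASLD (−0.95 ± 0.19, adjusted p 0.00159). C8g, the gamma chain, stood at 569.8, 651 and 695 CPM in SD and 333, 299 and 324 CPM in MASLD (−1.003 ± 0.14, adjusted p 0.000107). Both chains fell by less than C8b. C9, which polymerises into the pore, fell by 1.35 ± 0.23. C6 stood at 370.1, 148 and 142 CPM in SD and 138, 158 and 138 CPM in MASLD and did not pass (−0.61 ± 0.34, adjusted p 0.192), with SD sample 3 alone far above all other SD and MASLD libraries.

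All 5 complement inhibitors fell. Vtn, or vitronectin, which blocks insertion of the membrane attack complex, was both the most abundant and the most changed of them. It stood at 4707, 4491 and 4292 CPM in SD and 1941, 1815 and 1961 CPM in MASLD, with no overlap (−1.24 ± 0.18, adjusted p 0.000122). Serping1, the C1 inhibitor that also blocks contact proteases, fell by 0.95 ± 0.18, and Cfi, the protease that inactivates C3b and C4b, by 0.78 ± 0.13. Clu, or clusterin, and C4bp, a cofactor of Cfi, fell by 0.56 ± 0.16 and 0.49 ± 0.11.

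In the contact phase of coagulation all 4 genes fell. F11, factor XI, changed most, at 81.8, 48.2 and 48.0 CPM in SD and 21.4, 22.9 and 24.3 CPM in MASLD (−1.37 ± 0.19, adjusted p 8.82e-05). SD sample 3 was again the highest, and the groups did not overlap. Kng1, the kininogen that carries prekallikrein and factor XI, was the most abundant, at 3459.9, 3236 and 3419 CPM in SD and 1611, 1518 and 1722 CPM in MASLD (−1.06 ± 0.15, adjusted p 0.000123). Klkb1, plasma prekallikrein, fell by 1.24 ± 0.16 and F12, factor XII, by 0.58 ± 0.14. Counts of Klkb1 are uncertain, since 43.2% of its exon bases are shared with the same-strand model Gm45753, which held 0 counts, and Kng1 has the close copy Kng2.

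Of the 5 genes of thrombin generation 3 fell, and they included F7, whose protein starts coagulation with tissue factor. F7 stood at 119, 129 and 124 CPM in SD and 44.5, 43.4 and 51.4 CPM in MASLD, so that its level dropped by 62.6% (−1.42 ± 0.12, adjusted p 1.72e-06), with a narrow spread in both groups. F2, prothrombin and the most abundant member of the role, stood at 2624, 3079 and 3049 CPM in SD and 1654, 1478 and 1685 CPM in MASLD (−0.86 ± 0.13, adjusted p 0.000228). F10, factor X, fell by 0.99 ± 0.11. The cofactor gene F5 (−0.08 ± 0.14, adjusted p 0.713) and F9, factor IX (−0.22 ± 0.11, adjusted p 0.145), did not pass.

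All 4 genes of fibrin formation fell. Fgb, the fibrinogen beta chain, changed most, at 5765, 4685 and 5085 CPM in SD and 2518, 2194 and 3086 CPM in MASLD (−0.99 ± 0.20, adjusted p 0.00202). Fga, the alpha chain and the most abundant, stood at 6381, 4685 and 4745 CPM in SD and 2850.1, 2535 and 3416 CPM in MASLD (−0.85 ± 0.21, adjusted p 0.00842). MASLD sample 5 was the highest MASLD library for both, yet below every SD library. Fgg, the gamma chain, fell by 0.90 ± 0.17, and F13b, the carrier subunit of factor XIII, by 0.55 ± 0.11.

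Of the 4 anticoagulants 3 fell. Serpinc1, antithrombin, stood at 3868, 3982 and 4103 CPM in SD and 1941, 1833 and 1924 CPM in MASLD (−1.07 ± 0.14, adjusted p 5.43e-05), and its 3 values within a group lay close together. Serpind1, heparin cofactor II, fell by 1.07 ± 0.12 and Proc, protein C, by 1.06 ± 0.15. Pros1, protein S and the cofactor of protein C, stood at 40.4, 38.0 and 38.5 CPM in SD and 51.2, 49.4 and 46.7 CPM in MASLD. Its MASLD libraries were all above the SD libraries, and the difference did not pass (0.33 ± 0.12, adjusted p 0.0524).

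The 3 fibrinolysis genes fell. Serpinf2, antiplasmin and thus the inhibitor of plasmin, stood at 1244, 892 and 978 CPM in SD and 349.8, 362 and 383 CPM in MASLD (−1.51 ± 0.18, adjusted p 2.59e-05). Plg, plasminogen itself, stood at 4013, 3809 and 3678 CPM in SD and 1800.3, 1589.9 and 1933 CPM in MASLD (−1.11 ± 0.18, adjusted p 0.000349). Neither gene had overlapping groups. Cpb2, a carboxypeptidase that slows fibrin breakdown, fell by 0.49 ± 0.13. Of the 33 calls 3 ended when 1 library was left out: Mbl1 without SD sample 5, MASLD sample 4 or MASLD sample 5 (adjusted p 0.0968, 0.0652 and 0.0823), Clu without MASLD sample 5 (0.0506) and Cpb2 without MASLD sample 4 (0.0613). Without 0.1x sample 3, which shares the estimate of spread, Masp1 (0.0404), C4b (0.0198) and, as a rise, Pros1 (0.0140) passed, and Pros1 also passed without 0.1x sample 1 (0.0438).

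**Figure D2:**
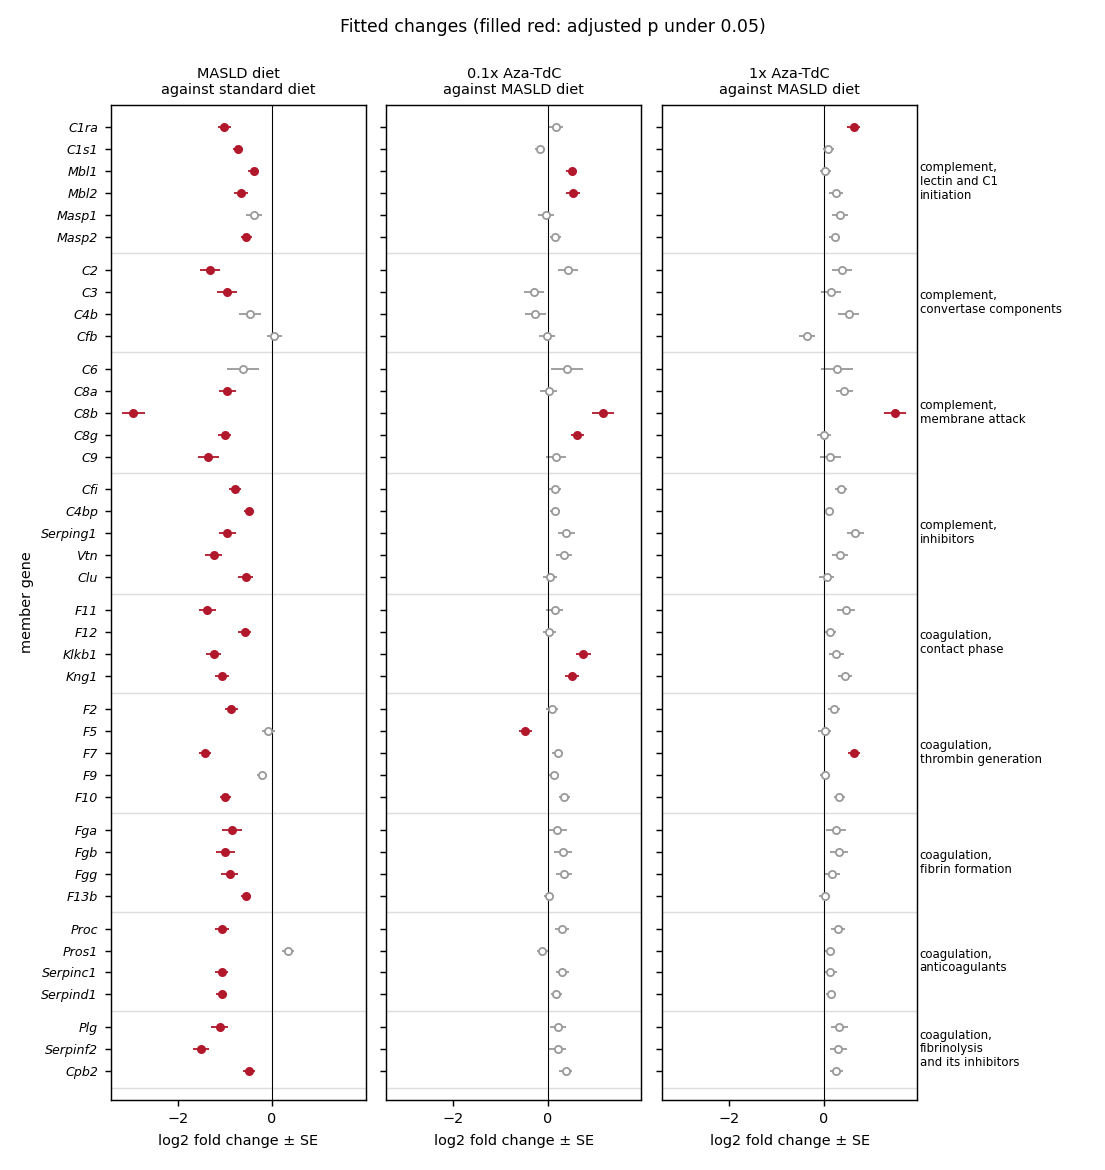
Fitted log2 fold change ± SE of each member for the MASLD diet against SD and for each Aza-TdC dose against the MASLD diet, with filled red points where the adjusted p was under 0.05. In the left panel 33 points are filled and all lie below 0, while 7 are filled at 0.1x and 3 at 1x.

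The cascades and their inhibitors were set side by side. The median log2 fold change on the MASLD diet was −0.75 for the 20 complement members and −0.99 for the 20 coagulation members, with ranges of −2.94 to 0.05 and −1.51 to 0.33. The mean of log2(CPM + 0.1) over the coagulation members exceeded that over the complement members by 0.51 to 0.69 in the SD libraries and by 0.55 to 0.63 in the MASLD libraries, so the groups overlapped in the difference between the cascades. At 0.1x this difference was 0.49 to 0.67 and at 1x it was 0.50 to 0.54. Of the 11 inhibitors of both cascades (Serping1, Cfi, C4bp, Vtn, Clu, Serpinc1, Serpind1, Proc, Pros1, Serpinf2 and Cpb2) 10 fell, with a median of −0.95, and of the other 29 members 23 fell, with a median of −0.90. Differences between these lists were not tested.

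Partners within a complex or a pathway did not all change by the same factor. The ratio of C8b to C8a counts was 0.529 ± 0.0426 in SD and 0.133 ± 0.0254 in MASLD (mean ± SD over 3 libraries), with no overlap. Every ratio below 0.17 belonged to a MASLD library, since the ratio was 0.293 ± 0.0245 at 0.1x and 0.284 ± 0.0361 at 1x. An exact permutation test, two-sided, gave p = 0.1 for the diet difference, the smallest that 3 samples against 3 allow. The ratio of F7 to F10 was 0.194 ± 0.00992 in SD and 0.144 ± 0.00391 in MASLD, also without overlap (exact p = 0.1). Serpinf2 over Plg, antiplasmin over plasminogen, was 0.270 ± 0.0381 in SD and 0.207 ± 0.0181 in MASLD, and Serpinc1 over F2, antithrombin over prothrombin, was 1.37 ± 0.0931 and 1.19 ± 0.0501 (no overlap and exact p = 0.1 for both). Among the fibrinogen chains, Fgb over Fgg was 1.24 ± 0.0424 in SD and 1.16 ± 0.0437 in MASLD, a small difference without overlap (exact p = 0.1). Fga over Fgg was 1.26 ± 0.120 in SD and 1.31 ± 0.0218 in MASLD, with overlapping groups (exact p = 0.7). Of 10 ratios computed, 6 are shown here, chosen after their values were seen. The groups overlapped in 3 of the other 4, C8g over C8a (exact p = 0.8), Mbl1 over Mbl2 (exact p = 0.2) and Klkb1 over F11 (exact p = 0.8), and not in C1ra over C1s1 (exact p = 0.1). These are ratios of counts and not of molecules, since they are not scaled by length.

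Several members are neighbours in the genome (build mm10), which the choice of members did not use. C8b (chromosome 4, 104766317 to 104804548, plus strand) and C8a (chromosome 4, 104815679 to 104876398, minus strand) end 11130 bases apart, and their log2 changes were −2.94 and −0.95. F7 (chromosome 8, 13026034 to 13035809) and F10 (chromosome 8, 13037308 to 13056676) follow each other on the plus strand, 1498 bases apart, with changes of −1.42 and −0.99. Fgg, Fga and Fgb lie side by side between 83007724 and 83049863 on chromosome 3, with changes of −0.90, −0.85 and −0.99. Also adjacent were F11 and Klkb1 on chromosome 8, at −1.37 and −1.24, C1ra and C1s1 on chromosome 6, at −1.01 and −0.72, and Cfb and C2 on chromosome 17, at 0.05 and −1.31.

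**Figure D3:**
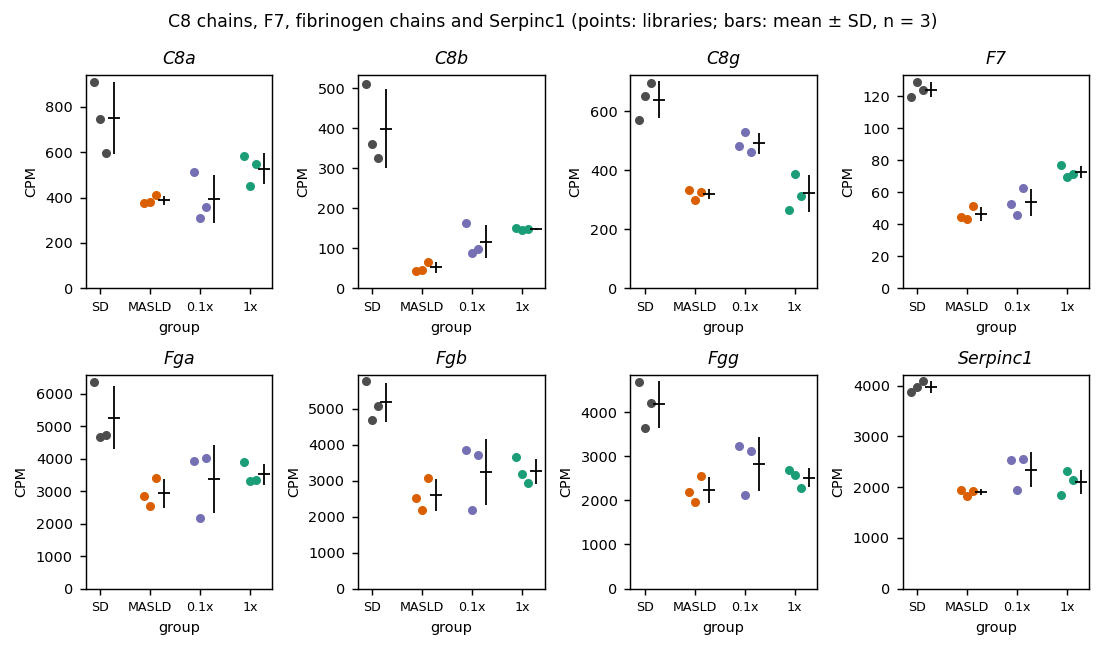
CPM of the 3 C8 chains, F7, the 3 fibrinogen chains and Serpinc1 in each library (points) with the group mean ± SD (bars, n = 3), on axes that start at 0. The C8b points of MASLD, at 43.8 to 66.7 CPM, are the lowest in their panel, and those at 1x are tightly grouped.

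Dividing by length changed the order at the top, and C3, the highest by CPM, stood at rank 4 of 40 in SD and in MASLD. In SD, with CPM divided by the length in kilobases of the longest annotated transcript, Vtn (2578 ± 119 CPM per kb), Fgg (2399 ± 303) and Fga (2037 ± 372) led, and neighbours in this order differed by no more than their spread. In MASLD the same 3 genes led, with Fgg at 1284 ± 174, Fga at 1134 ± 173 and Vtn at 1093 ± 45.4 CPM per kb, again within their spread. C8b moved from rank 26 of 40 in SD to rank 34 in MASLD, rank 32 at 0.1x and rank 29 at 1x. The longest transcript understates genes with a long alternative transcript, such as Serpinc1.

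Genes of the same pathways outside the 40 moved in both directions on the MASLD diet. Of 28 other complement genes tested, of 31 listed, 13 passed as higher and 6 as lower, and the median was 0.76. The smallest adjusted p among the rises belonged to C4a (1.03 ± 0.18, uncertain beside C4b), Colec10, a collectin (0.80 ± 0.15), and Itgb2, a chain of the leukocyte complement receptors (1.12 ± 0.23). The falls included Susd4, a complement inhibitor (−2.79 ± 0.35), and Cfhr2 (−0.81 ± 0.12). The C1q genes, which macrophages transcribe and which were singled out after their values were seen, rose by 0.79 ± 0.21 (C1qa), 0.94 ± 0.22 (C1qb) and 0.75 ± 0.23 (C1qc), while C1ra and C1s1, the proteases that join C1q in the C1 complex, fell.

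Of 33 other coagulation and fibrinolysis genes tested, of 37 listed, 12 passed as higher and 10 as lower, and the median was 0.66. Anxa2, whose protein binds plasminogen and its activator at cell surfaces, rose by 2.79 ± 0.25 on the log2 scale (adjusted p 2.64e-06), from 9.37 to 65.1 CPM. Gas6, a relative of protein S, rose by 1.51 ± 0.16, and F8, factor VIII, which endothelium makes, by 0.90 ± 0.13. Hgfac, a protease made by hepatocytes, fell by 1.34 ± 0.18, Proz, protein Z, by 0.86 ± 0.11, and Serpine2 by 1.72 ± 0.25.

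**Figure D4:**
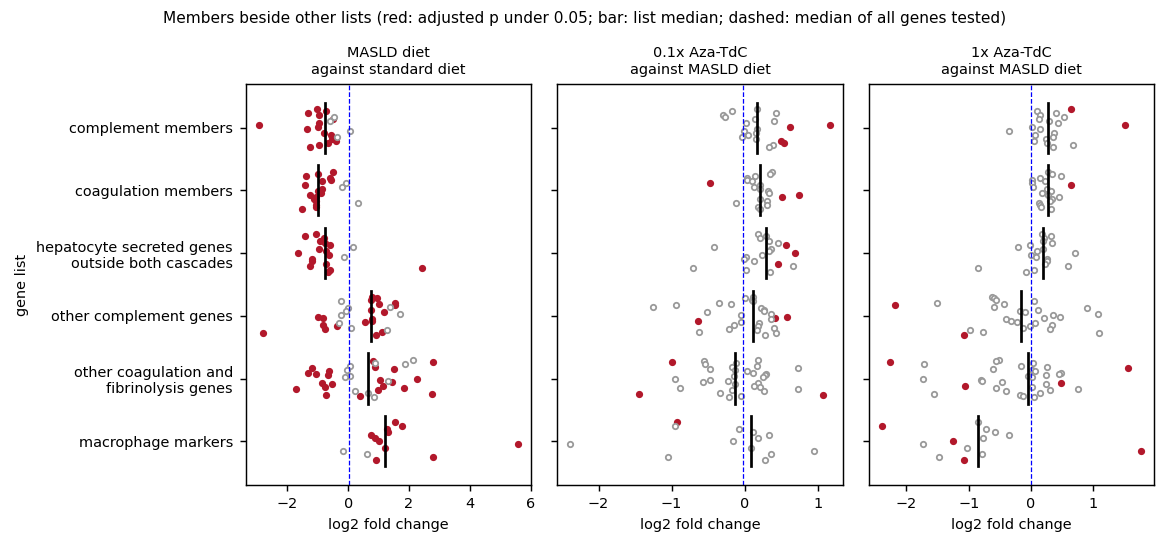
Log2 fold change of every tested gene of 6 lists for the MASLD diet against SD and each Aza-TdC dose against the MASLD diet, with red points at an adjusted p under 0.05, a black bar at the list median and a dashed line at the median of all genes tested. On the diet both member lists and the other hepatocyte secreted genes lie left of the line, at medians of −0.75, −0.99 and −0.76, and the other complement and coagulation genes lie on both sides.

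Secreted hepatocyte genes outside both cascades mostly fell on the diet too. Of these 19 genes 16 fell and 1 rose, with a median of −0.76, and the smallest adjusted p among the falls belonged to Ahsg (−1.43 ± 0.16), Afm (−1.07 ± 0.13) and Fetub (−1.66 ± 0.20). Serpina7, the thyroxine-binding globulin, rose by 2.42 ± 0.26. Of 12 hepatocyte markers, 7 of which are in that list, 10 fell, and their summed level was 197417 to 210637 CPM in SD and 107606 to 128904 CPM in MASLD. Markers of macrophages, stellate cells, sinusoidal endothelium and cholangiocytes moved the other way. Of 13 macrophage markers 11 rose (151 to 215 CPM summed in SD and 292 to 435 in MASLD), of 11 stellate cell markers 9 rose (147 to 168 and 266 to 403 CPM), of 10 sinusoidal endothelial markers 6 rose (132 to 173 and 201 to 231 CPM), and of 7 cholangiocyte markers tested 4 rose (23.4 to 36.3 and 50.6 to 164 CPM). Of 8 markers of T, NK and B cells 1 fell (2.91 to 9.94 and 1.59 to 3.67 CPM). Platelet markers, 3 of 5 tested and with Gp1bb at 0 in every library, summed to 2.25 to 2.33 CPM in SD and 2.07 to 2.86 in MASLD. The part of these cell types in the members' falls was not tested.

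At 0.1x Aza-TdC on the MASLD diet, 6 members were higher and 1 was lower than on the MASLD diet alone, 7 of 40 where 13.2% of all genes tested passed, 6.08% as higher and 7.09% as lower. The higher members were C8b, Klkb1, C8g, Mbl2, Kng1 and Mbl1, 4 of them in complement and 2 in the contact phase of coagulation. F5 was lower. The median over all members was 0.19, against −0.02 for all genes tested, and in 11 members every 0.1x library lay above every MASLD library, against 16.8% of all genes tested, and in 2 every one lay below, against 18.7%. None of the 11 inhibitors passed in edgeR, and at an unadjusted p under 0.05 there were 3 higher and 0 lower, while DESeq2 called 1 higher and 0 lower. At a threshold of 0.01 edgeR called 0 of the 40, where 0.837% of all genes passed.

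C8b stood at 164, 88.8 and 97.9 CPM at 0.1x, above all MASLD and below all SD libraries, and rose by 1.17 ± 0.23, adjusted p 0.0107. Klkb1 stood at 157, 104 and 124 CPM at 0.1x, above every MASLD library (0.75 ± 0.16, adjusted p 0.0133). C8g stood at 482, 529.7 and 461 CPM at 0.1x (0.62 ± 0.14, adjusted p 0.0145). For C8g, sample 3 was the highest library of its group, unlike for most members. The lectins Mbl1 and Mbl2 stood at 302, 319 and 256 and at 502, 449 and 448 CPM, with rises of 0.50 ± 0.12, adjusted p 0.0168, and 0.54 ± 0.15, adjusted p 0.0304. Kng1 stood at 2671, 1742 and 2494 CPM (0.51 ± 0.15, adjusted p 0.0379), with sample 3 only just above the highest MASLD library. F5 stood at 388, 261 and 359 CPM at 0.1x, against 486, 455 and 460.0 CPM in MASLD, and fell by 0.48 ± 0.14 (adjusted p 0.0418).

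Most of these calls depended on single libraries. Without 0.1x sample 3, 15 members rose and none fell by edgeR, where 8.73% of all genes passed. The added calls were F10 (adjusted p 0.0256), Cpb2 (0.0411), Plg (0.0367), Proc (0.0354), Serpinc1 (0.0441), Serping1 (0.0136), Vtn (0.0157), Fgb (0.0457) and Fgg (0.0449), and F5 was lost (0.101). Without MASLD sample 4 or 5, 2 members passed in each case, where 2.7% and 3.25% of all genes did, namely C8b and Klkb1, since Mbl1 (0.0631 and 0.0715), C8g (0.0603 and 0.0515), Mbl2 (0.102 and 0.0652), Kng1 (0.125 and 0.0766) and F5 (0.0988 and 0.0997) no longer passed. Mbl2, Kng1 and F5 were also lost without MASLD sample 3 (0.101, 0.105 and 0.119), which left 4 calls where 4.18% of all genes passed, Mbl2 and Kng1 without 0.1x sample 1 (0.0802 and 0.118), and Kng1 and F5 without 0.1x sample 4 (0.0902 and 0.0552) or 1x sample 5 (0.0528 and 0.0544). When trends with GC content and length were taken out of every library, 2 calls were left, where 2.43% of all genes passed.

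At 1x Aza-TdC, 3 members rose against the MASLD diet and none fell, in a comparison where 3.11% of all genes passed, 1.49% as higher. They were C8b, F7 and C1ra. The median over all members was 0.27, against −0.0048 for all genes tested, and in 21 members every 1x library lay above every MASLD library, against 13.5% of all genes tested, and in 1 every one lay below, against 14.3%. At an unadjusted p under 0.05, 10 members were higher and 1 was lower, and DESeq2 called 7 higher and none lower. At a threshold of 0.01 C8b alone passed, where 0.656% of all genes did. None of the 11 inhibitors passed in edgeR. At an unadjusted p under 0.05 there were 2 higher and 0 lower, and DESeq2 called 2 higher and 0 lower.

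C8b stood at 150.1, 147 and 147 CPM at 1x, nearly equal across the 3 libraries and above every MASLD and below every SD library, and rose by 1.51 ± 0.23, adjusted p 0.00348. Of all genes tested, 57 had a larger rise. F7 stood at 77.0, 69.3 and 71.6 CPM at 1x (0.65 ± 0.12, adjusted p 0.012) and C1ra at 293, 307 and 319.9 CPM (0.64 ± 0.14, adjusted p 0.0258), both above every MASLD and below every SD library. The C8b call held with any 1 library left out, at adjusted p values up to 0.0312. F7 was lost without MASLD sample 3 (0.0676), MASLD sample 4 (0.0921) or 1x sample 2 (0.0550), and C1ra without MASLD sample 3 (0.119), MASLD sample 4 (0.133) or 1x sample 2, 4 or 5 (0.0626, 0.0719 and 0.0830). Without 0.1x sample 3, which enters only through the shared spread, 7 members passed where 4.66% of all genes did, with Serping1 (0.00416), Kng1 (0.0220), Cfi (0.0368) and C4b (0.0471) added. Serping1 also passed without SD sample 3 (0.0479) or 0.1x sample 1 (0.0453).

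The named genes of the pathways outside the 40 moved both ways under Aza-TdC. Among other complement genes, Cfhr2 rose (0.42 ± 0.12) and Colec10 fell (−0.64 ± 0.15) at 0.1x, and the anaphylatoxin receptor C5ar1 (−2.19 ± 0.53) and the macrophage complement receptor Vsig4 (−1.08 ± 0.27) fell at 1x. In all, 3 of 28 passed at 0.1x and 2 of 28 at 1x. Among other coagulation genes, Vkorc1, which recycles the vitamin K that several clotting factors need, rose at 0.1x (1.08 ± 0.24), while Anxa2 (−0.99 ± 0.24) and Thbs1 (−1.45 ± 0.45) fell. At 1x, Fgl1 (1.55 ± 0.26) and Proz (0.47 ± 0.11) rose, and Anxa2 (−2.26 ± 0.25) and its partner S100a10 (−1.06 ± 0.18) fell. These made 3 of 33 at 0.1x and 4 of 33 at 1x. Summed macrophage markers were 357 to 412 CPM at 0.1x and 171 to 287 CPM at 1x, with 1 of 13 lower at 0.1x and 3 lower and 1 higher at 1x, and hepatocyte markers were 112567 to 164035 and 123640.0 to 145200.0 CPM, with 1 and 3 of 12 higher. Stellate cell markers summed to 219.7 to 288 CPM at 0.1x and 201 to 247 at 1x (1 of 11 lower at each dose), and cholangiocyte markers to 35.3 to 55.8 and 30.9 to 38.1 CPM (0 and 2 of 7 lower). Sinusoidal endothelial markers summed to 207 to 223 and 209.9 to 264 CPM (1 and 0 of 10 lower), platelet markers to 3.17 to 4.46 and 2.11 to 2.67 CPM (1 and 0 of 3 higher), and those of T, NK and B cells to 2.72 to 5.24 and 1.87 to 4.18 CPM (none passed). The part of these cell types was not tested. Of the 19 secreted genes outside both cascades 3 rose at 0.1x, among them Apoa2 (0.57 ± 0.15) and Fetub (0.69 ± 0.20), and none passed at 1x in edgeR (2 higher and 1 lower at an unadjusted p under 0.05, 1 higher and 1 lower by DESeq2).

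Between the doses, 4 members were higher at 1x than at 0.1x (C4b, F5, C1ra and F7) and 2 were lower (C8g and Mbl1), where 7.13% of all genes passed as higher and 5.86% as lower. C8b did not pass (0.34 ± 0.22, adjusted p 0.326). C4b showed the largest of these differences, at 1052, 532 and 1138 CPM at 0.1x and 1926, 1369.6 and 1438 CPM at 1x (0.80 ± 0.23, adjusted p 0.0344), with 0.1x sample 3 lowest and 1x sample 2 highest. The 2 libraries with the strongest trend with GC content are those, and without them none of the 6 calls remained by edgeR, where 1.85% of all genes passed. With only 1x sample 2 or 1x sample 5 left out, no member passed either, where 1.48% and 5.50% of all genes did, nor did any at a threshold of 0.01, where 1.83% of all genes did.

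Against the standard diet, both Aza-TdC groups still held most members at lower levels. At 0.1x, 31 members were lower and none higher, 14 in complement and 17 in coagulation, where 20.7% of all genes passed, 10.9% as lower. At a threshold of 0.01, 19 passed, where 9.52% of all genes passed. At an unadjusted p under 0.05, 33 were lower and 0 higher, and DESeq2 called 32 lower and 0 higher. The largest falls were C8b (−1.77 ± 0.23), Serpinf2 (−1.30 ± 0.18), C3 (−1.27 ± 0.21) and F11 (−1.23 ± 0.19). The falls of Masp2, C4b, C4bp, Serping1, Clu, Klkb1, F5, Fga, Fgb and Fgg ended in at least 1 of the 12 runs with 1 library left out. Those of Klkb1 and Fga ended in 8 of the 12. Such runs also added falls of Masp1 and C8g and a rise of Pros1. At 1x, 26 members were lower, 11 in complement and 15 in coagulation, and Pros1 was higher (0.46 ± 0.12, adjusted p 0.0156), where 19.8% of all genes passed, 9.84% as lower and 9.91% as higher. DESeq2 called 31 members lower at 1x, 15 in complement and 16 in coagulation, and 1 higher. Counts at an unadjusted p under 0.05 were the same. The Pros1 call ended without SD sample 5 (adjusted p 0.0533) or 1x sample 2 (0.0703). The largest falls at 1x were C8b (−1.43 ± 0.23), C9 (−1.21 ± 0.22), Serpinf2 (−1.19 ± 0.18) and C8g (−0.99 ± 0.14). At 1x the falls of Mbl1, C3, Cfi, C4bp, Clu, F12 and Fgb ended in at least 1 of the 12 runs. Those of Mbl1 and Clu ended in 9 of the 12. Falls added by such runs were C1ra, Mbl2, Masp2, C8a and Fga. Pros1 stood at 40.4, 38.0 and 38.5 CPM in SD, 51.2, 49.4 and 46.7 in MASLD, 51.5, 36.7 and 47.6 at 0.1x and 57.4, 49.2 and 54.5 at 1x. The 1x libraries lay above all SD libraries for this gene. These comparisons share the SD libraries with the diet comparison, and those of each dose against the MASLD diet share the MASLD libraries, so their results are not independent.

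Summed over the 40 members, the level was 34995 ± 7972 CPM at 0.1x and 37365 ± 779 CPM at 1x (mean ± SD over 3 libraries), between the MASLD and SD levels. The libraries spanned 25823 to 40266 CPM at 0.1x and 36889 to 38264 CPM at 1x, against 29252 to 32842 in MASLD and 56662 to 62269.7 in SD. The lowest 0.1x library, sample 3, lay below every MASLD library, while all 1x libraries lay above them. Fgg, Fgb and Fga, among the most abundant members, illustrate this spread, since at 0.1x they stood at 3233, 2121 and 3122, at 3849.5, 2179 and 3705 and at 3944, 2178 and 4025 CPM. None of the 3 passed at either dose against the MASLD diet.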

How the data were processed

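Mouse liver RNA was purified on columns and sequenced in pairs from stranded mRNA libraries, per the labels' protocols. Reads were aligned with STAR 2.7.3a to mm10, per the submitters' processing notes. How reads were counted (tool, strand setting and annotation) is not given in the sources used here, so overlapping and antisense genes may share reads. The authors deposited 1 table of raw counts per gene for the 12 samples, and 0 columns lay outside them. Groups and sample numbers follow the sample titles. The column of 1x sample 5 is named 1xAZA-8, so its number differs between title and library name. Symbols, positions and transcript lengths come from GENCODE vM21, which matched 55230 of the 55471 IDs (the others held 0.0033% of counts).

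All CPM values, log2 fold changes and p-values are from the counts. In R 4.3.3, edgeR 4.0.16 was run after filtering with filterByExpr (13866 of 22984 with any count), with TMM scaling and 1 coefficient per group over all 12 libraries. Contrasts were tested two-sided by the quasi-likelihood F test, with Benjamini-Hochberg adjustment over all genes tested and a threshold of 0.05. SE is the absolute log2 fold change over the square root of F. Alternatives were other scaling factors (RLE, upper quartile), DESeq2 1.42.0, other filters, a replicate block, fits of only the groups compared, removal of GC and length trends, a threshold of 0.01, and omission of each library in turn. A block by library-name numbers and runs without the 2 or 3 libraries with the strongest GC and length trend were added after seeing the data. Replicates differed by more than counting noise in all 12 pairs. Simulated data had 200 of 13866 genes changed and no trend with GC content or length. In them, 2-fold changes were recovered in 69.7% of genes for the diet, 67.7% at 0.1x, 61.5% at 1x and 66.2% between doses. Recovery of 1.5-fold changes was 36.9%, 21.9%, 25.4% and 26.6%. More than 200 genes passed in each of these comparisons of the data, so recovery there may differ. Same-numbered samples of different groups correlated between −0.215 and 0.0757 in their deviations from group means. Differently numbered samples correlated between −0.176 and 0.216. With 3 samples per group, these values cannot decide whether the numbers pair samples. In the diet comparison, per-library values are given for 2 kinds of member in each role. These are the member with the largest change among those passing and the member with the highest mean CPM over all 12 libraries. In the other comparisons each member passing is given, or the 4 largest changes per direction where over 8 passed. Of other lists, up to 3 genes per direction with the smallest adjusted p are named for the diet and up to 2 elsewhere, except 1 gene that is not reported here. Members and lists were chosen with earlier results of these data known.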

Additional observations from a re-analysis of the deposited data

Results flagged for a closer look

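In 6 members the effect of 1x Aza-TdC against the MASLD diet differed from that of 0.1x. The test was of the difference itself, the contrast of the 2 doses in edgeR given above (adjusted p under 0.05). Of the 40 members 4 differed upward and 2 downward, where 7.13% of all genes differed upward and 5.86% downward. Such calls were thus about as frequent among the members as among all genes tested. The effect at 1x minus that at 0.1x was 0.80 on the log2 scale for C4b, 0.50 for F5, 0.47 for C1ra and 0.44 for F7, and −0.61 for C8g and −0.46 for Mbl1. C8g stood at 482, 529.7 and 461 CPM at 0.1x and 264, 389 and 311 CPM at 1x, and Mbl1 at 302, 319 and 256 and 199, 229.9 and 209 CPM, in both cases without overlap. C1ra stood at 256, 166 and 242 CPM at 0.1x and 293, 307 and 319.9 CPM at 1x, F5 at 388, 261 and 359 and 477, 436 and 509.7 CPM, and F7 at 52.7, 45.6 and 62.9 and 77.0, 69.3 and 71.6 CPM. Each of the 6 calls ended without 1x sample 2 (adjusted p 0.0807 to 0.170) and without 1x sample 5 (0.0528 to 0.115), and those of C4b, F5, C1ra, F7 and Mbl1 also without 0.1x sample 3 (0.0523, 0.0803, 0.0847, 0.0794 and 0.0539). C1ra was also lost without SD sample 4 (0.0517), any MASLD library (0.0557 to 0.0623) or 1x sample 4 (0.0672). Mbl1 and F7 were also lost without 0.1x sample 1 (0.0592 and 0.0743), and C4b and F5 without MASLD sample 3 (0.0504 and 0.0534).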

How the results depend on the processing

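The diet count stayed within 30 to 36 members under every alternative. Of 5760 single-gene values, 125 newly passed and 357 no longer passed. In 178 the sign turned, 95 of them between the doses, and none of these passed in either fit. One example is Fga between the doses, at 0.06 and at −0.18 without 0.1x sample 3. Counts of members passing under Aza-TdC moved, and so did the share of all genes passing, given in brackets. At 0.1x against the MASLD diet (7, 13.2%) there were 2 with GC and length trends removed (2.43%), 0 at a threshold of 0.01 (0.837%), 16 without the 2 libraries with the strongest trends (11.3%), 13 without the 3 (4.27%), and 2 to 15 with 1 library left out. At 1x against the MASLD diet (3, 3.11%) there were 7 by DESeq2 (3.48%), 6 without a filter (4.92%), 8 with only the groups compared (7.55%), 1 at a threshold of 0.01 (0.656%), 5 without the 2 libraries (2.51%) or the 3 (2.74%), and 1 to 7 with 1 left out. Between the doses (6) there were 10 without a filter (10.8%), 0 with only the groups compared (5.57%), 2 with trends removed (4.13%), 0 at a threshold of 0.01 (1.83%), 0 without the 2 (1.85%) or the 3 libraries (1.43%), and 0 to 7 with 1 left out. At 0.1x against SD (31, 20.7%) there were 19 with only the groups compared (12.7%), 19 at a threshold of 0.01 (9.52%) and 23 to 32 with 1 left out, at 1x against SD (27) 21 to 31, and for the diet (33) 31 to 36. Where an arm was left with 2 samples, the shared fit was kept. Whether replicate numbers pair the samples is not known. With a replicate block by title numbers the counts were 32 for the diet, 0 at 0.1x (0.238% of all genes), 1 at 1x (0.382%), 0 between the doses (0%), 22 at 0.1x against SD (9.95%) and 15 at 1x against SD (8.09%). The blocks of 0.1x sample 1 and 1x sample 2 held no other library, so the blocked contrasts rested on 2 libraries in each Aza-TdC arm. The library name gives 1x sample 5 another number, which no other library has. With a replicate block by library-name numbers the counts were 32 for the diet, 0 at 0.1x (0.793%) and 20 at 0.1x against SD (8.37%). That block left the 1x arm with sample 4 alone, so its counts are not given. The cause of these moves was not tested beyond the fewer libraries or stricter threshold of each setting. Depth was ample for every member, and the 3 samples per group set the precision.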

Other observations

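Transcription factors and signalling genes known to act upstream of both cascades moved in both directions on the MASLD diet. Of 20 tested, 7 fell and 2 rose. The smallest adjusted p among the falls belonged to Foxa3 (−1.35 ± 0.13), a pioneer factor of liver genes, Hnf4a (−0.65 ± 0.14), the nuclear receptor that sustains hepatocyte identity, and Cebpb (−0.55 ± 0.13), a factor of the acute phase. Ppara (0.82 ± 0.21), the nuclear receptor of fatty acid oxidation, and Il6st (0.41 ± 0.13), the signalling chain of the interleukin-6 receptor, rose. At 0.1x against the MASLD diet, Onecut1 (−2.43 ± 0.41) and Ppara (−1.03 ± 0.21) had the smallest adjusted p among 4 falls, and Socs3 (0.79 ± 0.24), the feedback inhibitor of interleukin-6 signalling, was the 1 rise. At 1x none of the 20 passed in edgeR, with 7 higher and 2 lower at an unadjusted p under 0.05 and 3 higher and 0 lower by DESeq2.

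Acute phase genes outside both cascades also split on the diet, with 3 rises and 7 falls among 20. Cd14 (1.76 ± 0.29), Lcn2 (2.13 ± 0.43) and Saa1 (1.00 ± 0.32) rose, and among the falls Itih3 (−1.31 ± 0.16), Crp (−0.64 ± 0.11) and Hamp (−1.63 ± 0.30), which encodes hepcidin, had the smallest adjusted p. At 0.1x, Hamp (1.21 ± 0.30) and Orm1 (0.51 ± 0.16) rose, and Lcn2 (−2.14 ± 0.43) and Orm2 (−0.86 ± 0.26) fell. At 1x, Fgl1 (1.55 ± 0.26), which is also in the list of other coagulation genes and was counted there, rose, and Orm2 (−1.36 ± 0.26) and Cd14 (−1.17 ± 0.28) fell. Orm1 and Orm2 are close copies whose counts may not be fully separated.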
